A study of Rattus norvegicus with 3 samples.

Results

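The genes described here encode the machinery that docks synaptic vesicles, fuses them with the presynaptic membrane and recycles the fusion proteins. They were a list of 55 rat genes of 7 families: synaptotagmins, syntaxins, VAMPs, SNAPs with NSF, SV2 with synapsins and synaptophysin, Rab3 proteins, and complexins with active zone proteins. Members were found by matching the RefSeq accession printed for each array probe to its current gene symbol, and 53 of the 55 had at least 1 probe, among 8899 genes named in the series. Vamp4 and Napb had no probe named this way and were not analysed here. The 53 genes were measured by 67 probes.

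The tissue was the vestibular nuclei, where nerve fibres from the balance organs of the inner ear end in the brainstem. The animals were Sprague-Dawley rats, adult and male, of 200 to 250 g. The 3 groups were controls with a sham operation and rats whose left labyrinth had been taken out 1 day or 7 days earlier, from which the nuclei of the lesioned side were taken. The labels' protocols name 3 rats for each group and call the control animals normal in one place and sham-operated in others, and the side of the control nuclei is not given. Each group had 1 array, so tissue appears to have been pooled, no test of conditions was possible, and every difference below is between 2 arrays. The nuclei were dissected as whole tissue: fewer cells of a type and less RNA per cell cannot be told apart.

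Vesicle release runs through a fixed set of partners. Vesicle VAMPs pair with plasma membrane syntaxins and SNAP proteins of the Snap25 kind to form the SNARE complex, complexins clamp it, and synaptotagmins trigger fusion when calcium enters. The ATPase Nsf with its adaptor Napa takes used complexes apart, Rab3 proteins tag vesicles for docking, and synapsins tether them in the reserve pool. The large scaffolds Bsn and Pclo with Rims1 and Unc13a organise and prime the release site. In vestibular neurons these proteins serve the glutamatergic, GABAergic and glycinergic terminals whose balance is disturbed when the input of a labyrinth is lost.

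Levels are log2 of the processed spot intensity minus the 75th percentile of the same array, so a level of 0 is that percentile and a negative level lies under it. A fold is the difference of 2 levels of the same probe, and levels of different probes are not compared. Where a gene had several probes, the brightest on average stood for it. A fold was called measured when both arrays showed that probe clear of background and below saturation. The error after ± is the scanner software's own error estimate of the spots, carried into the log2 fold. It covers the spot only, not rats, dissections or labellings.

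The tissue label was checked against cell type markers. All 12 neuron markers with a probe, 8 of 8 astrocyte markers and 7 of 7 oligodendrocyte markers were well above background on each array. Of the hindbrain position genes only Hoxa2 had a probe, at 0.57 in sham and 0.58 at day 1 and not well above background at day 7. Of 4 cerebellar markers with a probe, Gabra6 was not well above background on any array and Neurod1 was so in sham only. Zic1 was at -2.81 in sham and -1.65 at day 1 and not well above background at day 7, and Calb1 was at 1.10, 1.40 and 1.85. The part of cerebellar tissue in the members' values was not tested. Transmitter markers also differed between the arrays. The glycine transporter Slc6a5 went from 0.45 in sham and 0.33 at day 1 to -4.81 at day 7. The brightest probe of Gad1, dim in sham (-5.26), was 3.39 log2 above sham at day 7 and not well above background at day 1. A further probe of Gad1 was clear of background in sham and at day 1, so its absence at day 1 is not settled. Gad2 was at -1.76, -0.60 and -0.46 and so past 2-fold above sham on both days, and Slc17a6 and Slc32a1 were within 2-fold of sham on both days. The dimmest signal well above background was 66.9 intensity units on the sham array, 109 on the day 1 array and 122 on the day 7 array.

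Most members were within 2-fold of their sham level. At day 1, 6 of 44 measured members were at least 2-fold higher than in sham and 2 were at least 2-fold lower. Among all 6292 measured genes the same calls were made for 8.26% (higher) and 4.37% (lower), against 13.6% and 4.55% of the members. At day 7, 7 of 44 members were higher and 3 lower, or 15.9% and 6.82%, where the background was 11.1% and 5.73% of 6261 genes. The median log2 fold of the members was -0.05 at day 1 and -0.10 at day 7, beside 0.001 and 0.05 over all measured genes. Both day comparisons use the same sham array. The counts leaned on the scaling at day 7, with 4 members higher and 3 lower under quantile normalization and under cyclic loess.

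Between the days, members past 2-fold were mostly lower at day 7. At day 7 against day 1, 1 of 44 was at least 2-fold higher and 7 were lower, 2.27% and 15.9%, with a background of 6.56% higher and 5.32% lower among 6142 genes. The 7 were Sv2c, Rab3b, Syt4, Syt17, Vamp1, Rab3a and Syt7. Of these, Sv2c, Rab3b, Syt4 and Syt17 were also among those called higher at day 1 against sham. Both comparisons use the same day 1 array, so the calls are not independent. In the authors' unscaled values the split was 3 higher and 4 lower, and without scaling the median of all genes moved to 0.15 from 0.04. The median was 0.05, and 24 of the 44 were above 0. Of the 43 members measured on all 3 arrays, 16 spanned at least 2-fold, or 37.2%, against 25.3% of 6047 genes. The narrowest span was that of Pclo at 0.05 log2 and the widest that of Sv2c at 4.10.

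**Figure D1:**
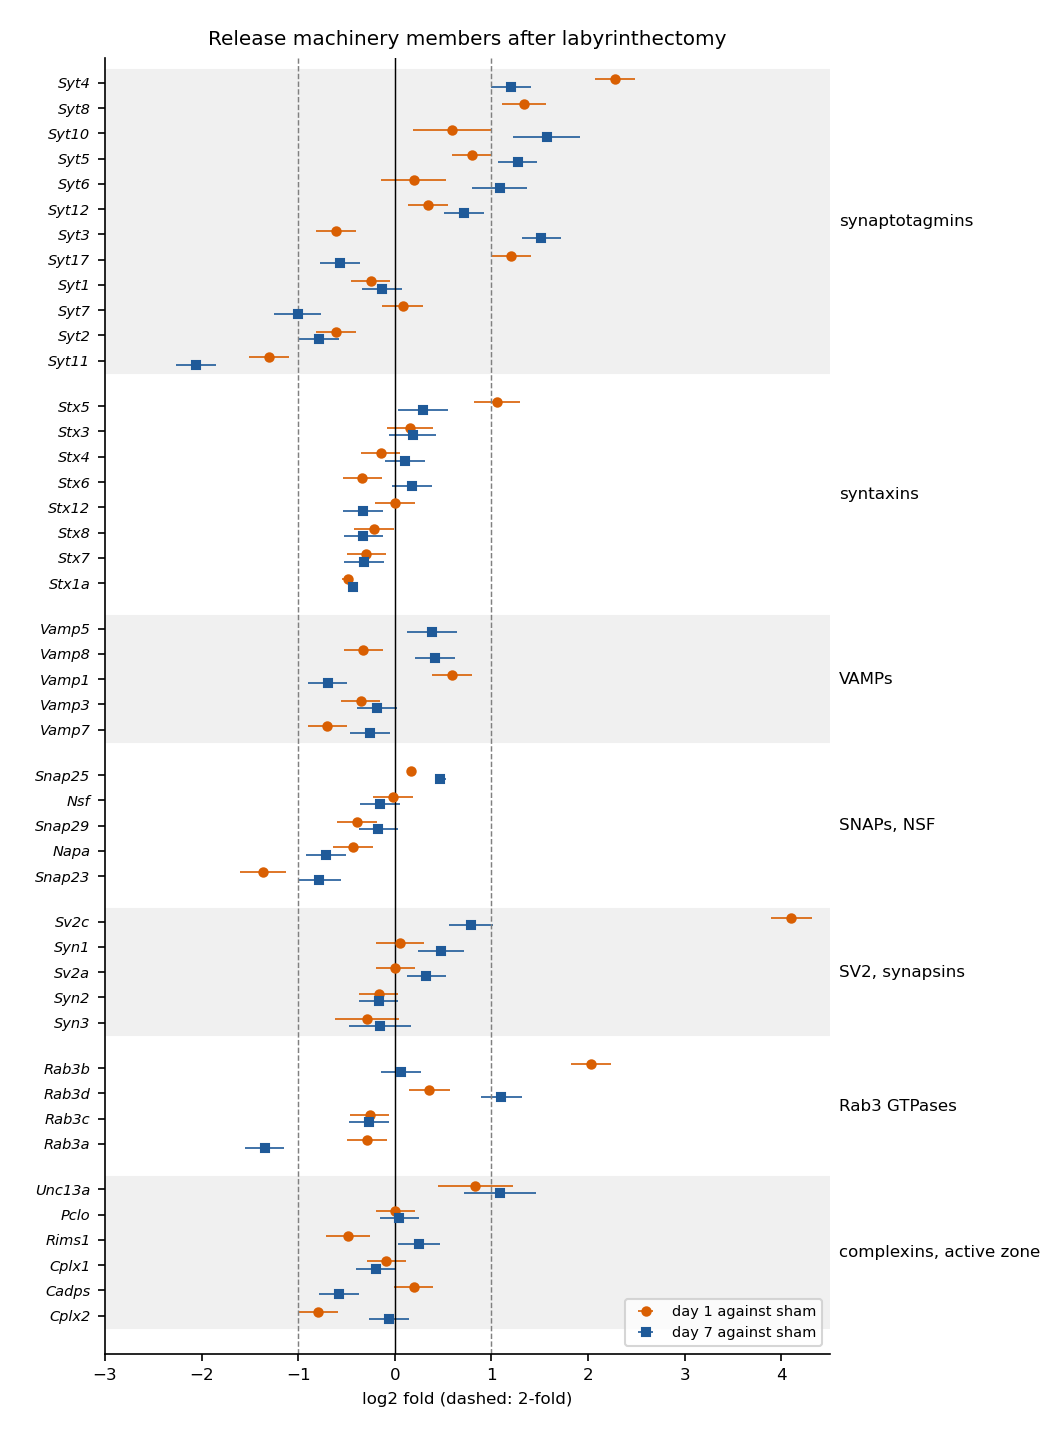
Log2 folds (horizontal axis) of the measured members by family, brightest probe, for day 1 (orange circles) and day 7 (blue squares) against sham, with the scanner's spot error as bars and dashed lines at 2-fold. Sv2c at day 1 (4.10) lies farthest to the right and Syt11 at day 7 (-2.06) farthest to the left, while all 8 syntaxins but Stx5 lie within 2-fold on both days.

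Promoter sequences are shown for 4 members whose folds were large, chosen after the values were seen: Sv2c and Rab3b, highest at day 1, and Syt11 and Rab3a, lowest at day 7. Each window runs from 250 bases before to 50 bases after the annotated gene start in the GRCr8 assembly, from RefSeq, and is read 5′ to 3′ on the gene's strand. Capitals mark the GC box GGGCGG and the cyclic AMP response element core TGACG, on either strand.

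Sv2c, chr2:29163119-29163418, minus strand: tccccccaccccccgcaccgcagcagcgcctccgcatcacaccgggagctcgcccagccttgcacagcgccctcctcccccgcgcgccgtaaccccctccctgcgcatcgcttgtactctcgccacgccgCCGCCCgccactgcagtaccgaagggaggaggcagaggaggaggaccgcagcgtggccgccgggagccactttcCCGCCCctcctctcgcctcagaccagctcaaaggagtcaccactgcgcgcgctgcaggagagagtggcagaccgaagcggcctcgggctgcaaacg

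Rab3b, chr5:128858841-128859140, plus strand: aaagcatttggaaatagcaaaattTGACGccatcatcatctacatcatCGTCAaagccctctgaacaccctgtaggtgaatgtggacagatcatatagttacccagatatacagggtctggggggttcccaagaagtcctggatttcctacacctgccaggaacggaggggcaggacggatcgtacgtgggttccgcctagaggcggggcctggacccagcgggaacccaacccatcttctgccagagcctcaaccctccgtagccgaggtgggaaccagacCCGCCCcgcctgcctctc

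Syt11, chr2:176529726-176530025, minus strand: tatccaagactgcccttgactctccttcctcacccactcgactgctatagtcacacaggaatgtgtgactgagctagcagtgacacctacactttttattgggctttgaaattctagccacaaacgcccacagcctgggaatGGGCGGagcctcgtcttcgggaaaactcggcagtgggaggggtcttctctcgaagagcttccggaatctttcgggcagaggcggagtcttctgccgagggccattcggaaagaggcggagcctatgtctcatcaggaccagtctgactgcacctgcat

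Rab3a, chr16:18722224-18722523, minus strand: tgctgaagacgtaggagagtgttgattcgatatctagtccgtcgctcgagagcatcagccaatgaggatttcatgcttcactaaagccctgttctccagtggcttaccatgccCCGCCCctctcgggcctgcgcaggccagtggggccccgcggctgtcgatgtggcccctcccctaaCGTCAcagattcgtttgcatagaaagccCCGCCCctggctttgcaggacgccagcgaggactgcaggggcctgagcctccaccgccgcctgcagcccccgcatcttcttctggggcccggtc

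Sv2c held 2 GC boxes and no TGACG, Rab3b held 2 TGACG cores and 1 GC box, Syt11 held 1 GC box, and Rab3a held 2 GC boxes and 1 TGACG core. Of 45 member genes with a window in the table, 36 held GGGCGG on either strand, against 33.1% of all 33469 windows and 41.8% of 21851 windows of protein-coding genes. The median GC content was 64.7% in member windows and 55% in protein-coding ones. TGACG was found in 14 of 45 member windows and in 23.5% of protein-coding ones, and the full element TGACGTCA, which contains it, in 3 of 45 (Napa, Syn1 and Vamp1) and 2.1%. The AP-1 letters TGANTCA occurred in 1 member window, that of Syp, and in 6.53% of protein-coding windows. The EGR letters GCGTGGGCG occurred in 1, that of Vamp2, and in 0.755%. No member window held the TATA letters TATAAA, found in 13.0% of protein-coding windows. These matches describe letters only.

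Synaptotagmins are calcium sensors and related vesicle proteins, and they made up 4 of the 8 members past 2-fold at day 1 and 7 of the 10 at day 7. At day 1, 3 of 12 measured were higher and 1 was lower, where the shares over all genes were 8.26% and 4.37%. At day 7, 5 of 11 were higher and 2 were lower, beside 11.1% and 5.73% of all genes. Their median log2 fold was 0.27 at day 1 and 0.72 at day 7. Over 11 other settings it ranged from -0.25 to 0.27 at day 1 and from -0.35 to 0.72 at day 7, so the family has no settled direction.

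The fast sensors of synchronous release were within 2-fold of sham where they were measured. Syt1 was at 0.05 in sham, -0.20 at day 1 and -0.08 at day 7, folds of -0.25 ± 0.20 and -0.13 ± 0.20. A dimmer probe of Syt1 was well above background in sham only. Syt2, the main fast sensor of many brainstem terminals, was at -1.36, -1.97 and -2.14 in the same order. It was lower on both days, with folds of -0.61 ± 0.21 and -0.78 ± 0.21, inside 2-fold. Syt9, another fast sensor, was above background in sham only and too dim there to give a bound.

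Syt4, a synaptotagmin of dense-core vesicles that does not bind calcium in the usual way, was at -3.05 in sham, -0.77 at day 1 and -1.85 at day 7. It was 4.87-fold higher at day 1 (2.28 ± 0.21 log2) and 2.3-fold higher at day 7 (1.20 ± 0.21). Among measured folds of brightest probes it was the single member past 2-fold above sham on both days. Syt11, its closest relative, went the other way, from -0.70 in sham to -1.99 and -2.75. It was 2.46-fold lower at day 1 and 4.16-fold lower at day 7 (-2.06 ± 0.21), and among measured folds it was the single member past 2-fold below sham on both days. Syt13, described below by bounds alone, was also lower on both. Each of these genes had 1 probe on 1 spot, and each call held under the alternatives in which the gene was measured. Only the alternatives of scaling or background correction could move such a fold.

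Syt3, Syt6 and Syt10 are close relatives that pair through disulphide bonds, and with Syt5 they were higher at day 7. Syt3 was at -0.97 in sham, -1.58 at day 1 and 0.55 at day 7, so it was lowest at day 1 and 2.86-fold above sham at day 7 (1.52 ± 0.20). Syt5 was at -0.24, 0.56 and 1.04, higher on each day, and 2.41-fold above sham at day 7 (1.27 ± 0.20). Syt10 was at -5.87, -5.28 and -4.30, with a fold of 1.57 ± 0.35 at day 7, and Syt6 at -5.13, -4.93 and -4.04, with one of 1.09 ± 0.29. Both were dim, and Syt10 (0.88) and Syt6 (0.78) came within 2-fold under normexp background correction. Syt6 was also within 2-fold under quantile normalization and cyclic loess. All 4 were highest on the day 7 array.

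Syt17, a synaptotagmin-like protein without a membrane anchor, was highest at day 1. Its levels were -1.54 in sham, -0.34 at day 1 and -2.11 at day 7, a fold of 1.20 ± 0.20 at day 1 and of -0.57 ± 0.21 at day 7. Syt8 had a similar order, at -4.26, -2.92 and -5.47, with the day 7 value not well above background. It was 2.53-fold higher at day 1 than in sham and at least 5.82-fold lower at day 7 than at day 1. Syt7, the slow sensor of asynchronous release and facilitation, was at -3.37, -3.29 and -4.38. It was 2.01-fold lower at day 7 than in sham, at the edge of the call, and its log2 fold was -0.73 under normexp.

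Syt12 stayed within 2-fold on both days (0.34 and 0.72). Syt13 was detected in sham only, at -3.38, and was at least 4.25-fold lower at day 1 and at least 4.47-fold lower at day 7. Where a probe was dim on an array, its own value or the dimmest level clear of background there, whichever was greater, was used for such a bound. They are not among the 2-fold counts.

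**Figure D2:**
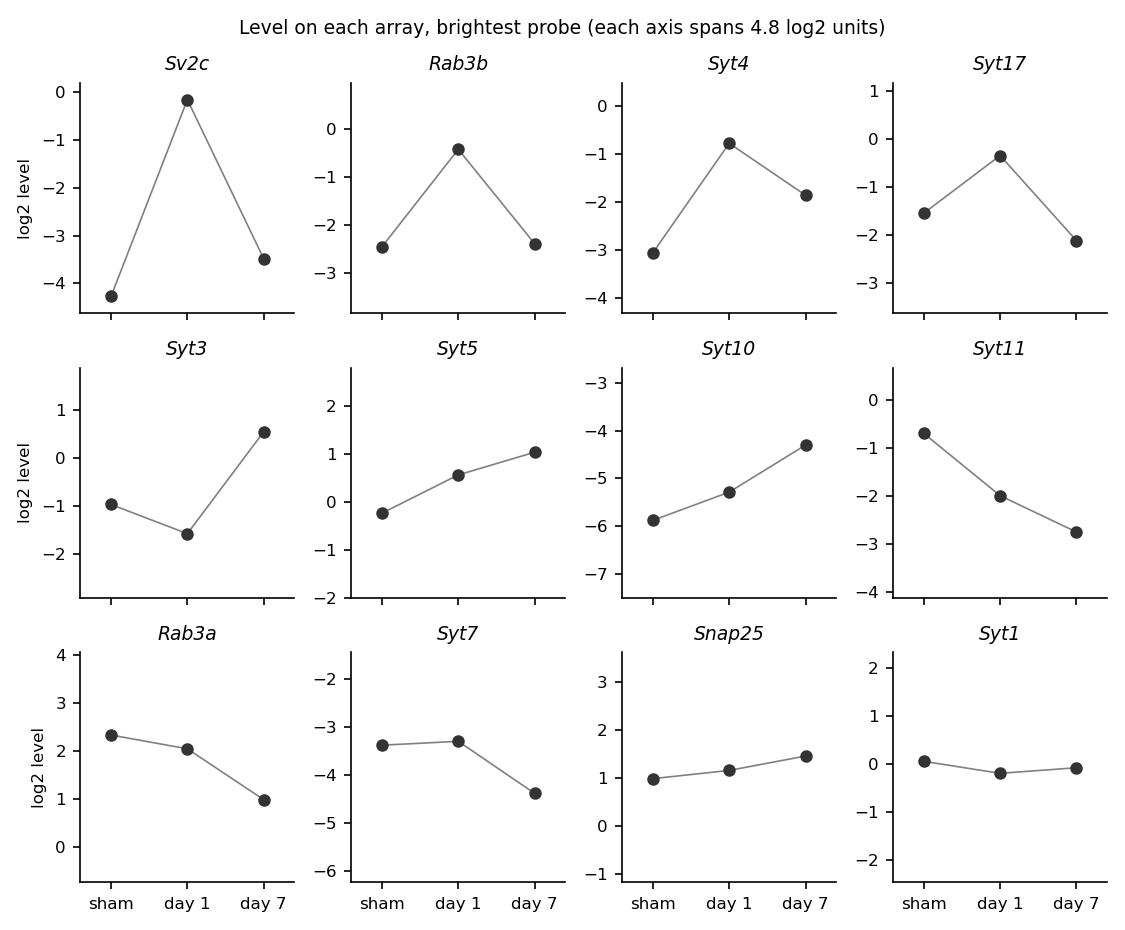
Level on each of the 3 arrays (log2, relative to the array's 75th percentile) of 12 members, brightest probe, 1 array per point. Sv2c, Rab3b, Syt4 and Syt17 were highest at day 1, Syt3, Syt5 and Syt10 at day 7, and Syt11 and Rab3a in sham, while Snap25 and Syt1 spanned 0.47 and 0.25.

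SV2 proteins are vesicle glycoproteins that set how readily vesicles respond to calcium, and Sv2c is the paralogue with the narrowest range in the brain. Sv2c was at -4.27 in sham, -0.17 at day 1 and -3.48 at day 7, or 295, 4671 and 508 intensity units. It was 17.2-fold higher at day 1 (4.10 ± 0.21) and 9.96-fold lower at day 7 than at day 1 (-3.32 ± 0.22). At day 7 it was 0.79 ± 0.23 above sham, inside 2-fold. The gene had 1 probe on 1 spot, so no second probe bears on this value. Under all 11 alternatives its day 1 fold stayed between 3.69 and 4.10. Only those of scaling or background correction could move it, as the gene had 1 unflagged spot on each array.

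The other paralogues did not share that pattern by the probes at hand. Sv2a was at -0.08, -0.08 and 0.24, with folds of 0.01 ± 0.20 and 0.33 ± 0.20. The brightest probe of Sv2b was saturated on each array and gives no fold. A dimmer probe of Sv2b was at -2.01 in sham, -3.66 at day 1 and -5.50 at day 7, a fold of -1.65 ± 0.22 at day 1 and at least 11.2-fold lower at day 7. The day 7 value was not well above background, and the disagreement with a probe at saturation cannot be settled from these arrays.

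Synapsins, which tether vesicles to actin in the reserve pool, were within 2-fold of sham. Syn1 was at -4.26, -4.20 and -3.78, with folds of 0.05 and 0.48. Syn2 was at 0.37, 0.20 and 0.20, with -0.17 on both days, and Syn3 was at -0.29 and -0.16 against sham. Syp, the vesicle membrane protein synaptophysin, was saturated in sham and has no fold against it. Its level was 3.50 at day 1 and 3.30 at day 7, a difference of -0.20 ± 0.20, no larger than the spot error. Sv2c was thus the member of this family past 2-fold from sham by its brightest probe.

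Rab3 GTPases tag vesicles for docking, and by their brightest probes 3 of the 4 spanned at least 2-fold over the arrays. Of 6047 genes measured on all arrays, 25.3% did so. Rab3a, the main neuronal form, was at 2.33 in sham, 2.04 at day 1 and 0.98 at day 7. It was within 2-fold at day 1 (-0.29 ± 0.20) and 2.55-fold lower at day 7 (-1.35 ± 0.20). Under 11 alternatives the day 7 fold ranged from -1.41 to -1.27. Only those of scaling or background correction could move it, as Rab3a had 1 probe on 1 spot. Rab3c stayed within 2-fold, at -0.26 and -0.27.

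Rab3b was highest at day 1 by both of its probes. The brighter probe was at -2.46, -0.43 and -2.40, a fold of 2.03 ± 0.21 at day 1 and of 0.07 ± 0.21 at day 7. The dimmer one was at -3.47, -2.60 and -4.34, with 0.87 ± 0.21 at day 1 and -0.88 ± 0.26 at day 7. From day 1 to day 7 both were lower by similar amounts, -1.97 and -1.74. Rab3d, a form known from secretory cells, had probes that were both above sham at day 1 (0.36 and 2.72) but had opposite signs at day 7. The brighter was at -3.07, -2.71 and -1.97 and peaked at day 7 (1.10 ± 0.21). The dimmer was at -4.10, -1.38 and -4.93 and peaked at day 1 (2.72 ± 0.21), with -0.82 at day 7.

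Syntaxins are the target membrane SNAREs, and of 8 measured only Stx5 passed 2-fold by a brightest probe, at day 1. Of all genes, 12.6% were past 2-fold that day and 16.9% at day 7. Stx1a, the syntaxin of the synaptic plasma membrane, was measured on up to 10 spots an array. It was at -3.86 in sham, -4.35 at day 1 and -4.30 at day 7, folds of -0.49 ± 0.06 and -0.44 ± 0.05. These errors come from the spread of its spots and are the smallest of the family, yet they hold no error between rats. Stx5, a syntaxin of the Golgi, was at -4.64, -3.58 and -4.34. Its fold of 1.06 ± 0.24 at day 1 was within 2-fold under 4 alternatives, the lowest being 0.92.

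The endosomal syntaxins differed little. The brightest probe of Stx12 was at 1.65, 1.65 and 1.32. Stx12 had 3 probes that differed by 0.06 at day 1, with day 1 folds of 0.0028, 0.04 and -0.02 and day 7 folds of -0.33, -0.43 and -0.60 in turn. Stx7 was at 2.06, 1.77 and 1.74 by its brighter probe. Stx7 and Stx8 had folds of -0.30 and -0.21 at day 1 and of -0.32 and -0.33 at day 7. The dimmer probe of Stx7 gave 0.07 and 0.01. Stx3 (0.16 and 0.19) and Stx4 (-0.15 and 0.10), plasma membrane syntaxins of many cell types, were also close to sham. Stx6, of the trans-Golgi network, was at -0.32, -0.65 and -0.14 by its brighter probe, folds of -0.34 and 0.18. Its dimmer probe, at -3.16, -4.11 and -4.50, gave -0.95 and -1.34. Stx2 was not well above background on any array.

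VAMPs are the vesicle SNAREs. Vamp1, the form typical of brainstem and spinal cord, was at 0.12 in sham, 0.71 at day 1 and -0.57 at day 7. Its brighter probe was thus higher at day 1 (0.59 ± 0.20) and lower at day 7 (-0.70 ± 0.20), with -1.29 between the days. The dimmer probe was at -2.09, -1.82 and -1.82 and gave 0.26, 0.27 and 0.0017. Vamp2, the main VAMP of the forebrain, had a brightest probe at saturation on each array. A dimmer probe, unsaturated at 3.07, 3.31 and 2.85, gave 0.24 ± 0.20 and -0.22 ± 0.20.

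No VAMP was past 2-fold from sham among 4 measured at day 1 and 5 at day 7. Over all genes 12.6% and 16.9% were, so few VAMPs past 2-fold would be looked for in so small a family. Vamp3, Vamp7 and Vamp8, which serve constitutive and endosomal traffic, had folds of -0.35, -0.70 and -0.32 at day 1. Their day 7 folds were -0.19, -0.26 and 0.41. Vamp5 was at -4.57 in sham and -4.18 at day 7 but not well above background at day 1, where it was at least 2.03-fold lower than in sham.

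Among the SNAPs with Nsf, Snap25 was the best measured. This plasma membrane SNARE of neurons lay on 10 spots, of which 8 were used in sham, and was at 0.99 in sham, 1.16 at day 1 and 1.46 at day 7. The folds were 0.17 ± 0.04 and 0.47 ± 0.06, with errors from the spread of spots. Snap23, its counterpart in other cells, was at -2.84, -4.20 and -3.62 by its brightest probe, a fold of -1.37 ± 0.24 at day 1. Another probe gave -0.62 and the dimmest 0.73, so its day 1 direction is not settled. At day 7 the 2 brighter probes gave -0.78 and -1.12.

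Of the disassembly pair, Nsf was close to sham, at -2.50, -2.52 and -2.65, with folds of -0.02 and -0.15. Its adaptor Napa was lower on both days, inside 2-fold, with -0.43 ± 0.21 and -0.71 ± 0.21. Snap29, a SNAP of internal membranes, was at 2.13, 1.74 and 1.96 by a bright probe, folds of -0.39 and -0.17. A dim probe gave 1.41 ± 0.32 at day 7. Nsf spanned 0.15 over the 3 arrays, the next narrowest member after Pclo.

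**Figure D3:**
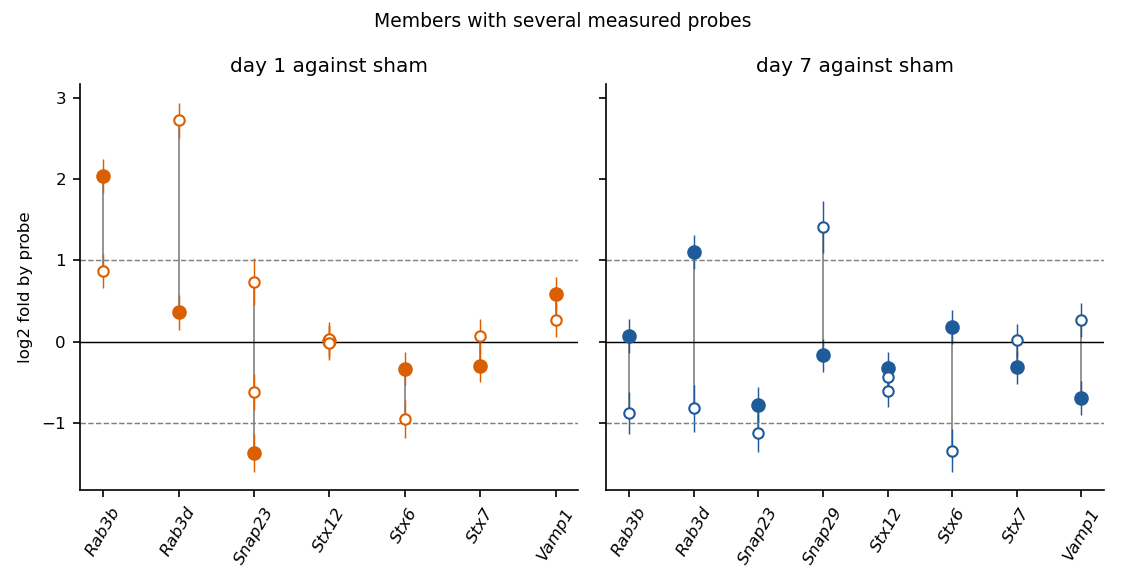
Log2 folds (vertical axis) of members with more than 1 measured probe at day 1 (left) and day 7 (right) against sham. Filled points are the brightest probe, open points the others, bars the scanner's spot error and dashed lines 2-fold; Stx12 probes lie close together, and those of Rab3d differ by 2.36 at day 1.

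For some members, the probes differed beyond the spot error. At day 1, 7 members had more than 1 measured probe, with a median gap of 0.61 log2 between the lowest and the highest. The gap passed 1 in 3 of them (Rab3b, Rab3d and Snap23). At day 7 the median gap was 0.95 over 8 members, and the probes of 6 had opposite signs. Most members past 2-fold, Sv2c and all the synaptotagmins among them, rest on 1 probe.

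Of 6 measured complexins and active zone proteins, none was past 2-fold from sham at day 1 and 1 was at day 7. The shares over all genes were 12.6% and 16.9%. Pclo, a scaffold of the active zone, was at 0.45, 0.45 and 0.49 and spanned 0.05, less than its spot error of 0.20. Cplx1 was at -1.60, -1.68 and -1.79. Cplx2 was at -0.94 in sham and -1.73 at day 1, a fold of -0.79 ± 0.21, and was back near sham at day 7 (-0.06 ± 0.20). Cadps, which primes dense-core vesicles, was at 2.82, 3.01 and 2.24, with -0.58 ± 0.20 at day 7. Rims1, a docking scaffold, was at -2.99, -3.48 and -2.75, with folds of -0.49 ± 0.23 and 0.25 ± 0.22 and with 0.73 ± 0.23 between the days.

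Unc13a, the main vesicle priming factor, was the member of this family past 2-fold. It was at -6.08, -5.24 and -4.99, which are 84.1, 138 and 178 intensity units, close to the lowest measurable signal. Its day 7 fold of 1.09 ± 0.37 was within 2-fold under quantile normalization, cyclic loess and normexp. Bsn was above background in sham only and too dim for a bound, and Unc13b was not well above background on any array.

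A core of 17 members was set apart for this work as the main neuronal exocytosis genes: Syt1, Syt2, Stx1a, Vamp1, Vamp2, Snap25, Nsf, Syn1, Syp, Sv2a, Rab3a, Cplx1, Cplx2, Unc13a, Rims1, Bsn and Pclo. None of the 14 core genes measured at day 1 was past 2-fold, and 8 of the other 30 members were, where 12.6% of all genes were. The core genes with no measured fold that day were Vamp2, Syp and Bsn. At day 7 the core had 1 gene higher (Unc13a) and 1 lower (Rab3a) of 14, and the other 30 had 6 higher and 2 lower, where 16.9% of all genes were past 2-fold. The medians were -0.05 and -0.10 in the core and -0.07 and -0.05 in the others, and the difference between the lists was not tested. The core was chosen with earlier results of these data known, so the split is descriptive only.

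Of 11 measured neuron markers, 3 were at least 2-fold lower at day 7 and 8 were within 2-fold, where 5.73% of all genes were lower. Of the 11, 10 were below 0, their median was -0.59, and their linear levels relative to the 75th percentile summed to 44.9 on the sham array, 41.7 on the day 1 array and 29.1 on the day 7 array. At day 1 none of the 11 was past 2-fold and the median was -0.20. The 3 lower markers were the neurofilaments Nefh (-2.30), Nefl (-1.61) and Nefm (-1.17). The part of neuron content in the lower Rab3a, Syt2 and Syt11 values was not tested. Of the choroid plexus markers, Folr1 (1.72) and Sostdc1 (1.86) were higher at day 7 and Ttr was lower at day 1 (-1.20), while Kl and Clic6 were not well above background on any array. The 3 measured summed to 0.684 (sham), 0.512 (day 1) and 1.23 (day 7). The part of such tissue in the members' values was not tested. Of the oligodendrocyte markers, 6 of 7 were below 0 at day 7, Mbp was past 2-fold (-1.29), and their summed linear level was 23.9, 20.7 and 16.8 on the 3 arrays. Of the microglial markers, 5 of 6 with a probe were well above background in sham, 3 at day 1 and 5 at day 7. The day 1 count leaves out P2ry12, whose signal there was dropped as an outlier and not found dim. With outlier spots kept, 3 markers were measured at day 1, 1 at least 2-fold higher and 1 lower. Without those spots, Aif1 (-1.08) and Csf1r (-0.93) were the pair measured at day 1, and none of the 4 measured at day 7 was past 2-fold. The part of glia in the members' values was not tested. Among astrocyte markers, S100b had log2 folds of 3.19 at day 1 and 1.89 at day 7, and Aqp4 of 0.05 and 1.25. The other 5 measured were within 2-fold on both days.

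Of 104 other presynaptic genes listed beside the members, 73 had a probe and 62 were measured on each day. At day 1, 6 were at least 2-fold higher and 2 lower, with a median of -0.04. The shares were 9.68% and 3.23%, beside 8.26% and 4.37% of all genes. At day 7 there were 3 higher and 9 lower, or 4.84% and 14.5%, beside 11.1% and 5.73% of all genes. The median of the listed genes at day 7 was -0.14 and stayed below 0 under all 11 alternatives (-0.21 to -0.08). The share past 2-fold was 12.9% and 19.4%, beside 12.6% and 16.9% of all genes.

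Among measured folds, the highest at day 1 were the active zone proteins Erc2 (1.96) and Rims3 (1.40), the vesicle chaperone Dnajc5 (1.32) and the vesicle protein Synpr (1.11). The lowest were Lin7c (-1.69), an adaptor of the release site, the dynamin Dnm3 (-1.16), Rab27a (-0.84) and the lipid phosphatase Synj2 (-0.72). Rims4, not well above background in sham and at -2.97 at day 1, and Apba1, at -3.80 in sham and not well above background after surgery, have no measured fold and stand outside this order. Both were named after their values were seen. Erc2 was at -4.14, -2.18 and -3.83, so it was highest at day 1, as Sv2c, Rab3b and Syt17 were.

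Among measured folds at day 7 the highest were Scamp5 (1.69), Rph3al (1.49), Synpr (1.25) and Vti1a (0.79). Among the lowest were the endocytic adaptor Epn1 (-1.57), Rab27a (-1.44) and the synuclein Sncg (-1.27). Epn1 was at 1.70 in sham, 2.72 at day 1 and 0.13 at day 7. By group, vesicle proteins had 2 higher and 4 lower of 19 at day 7, and endocytosis genes 2 lower of 20. Active zone genes had 2 lower of 10, and fusion regulators 1 in each direction of 13. Over all genes, 11.1% were higher and 5.73% lower.

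**Figure D4:**
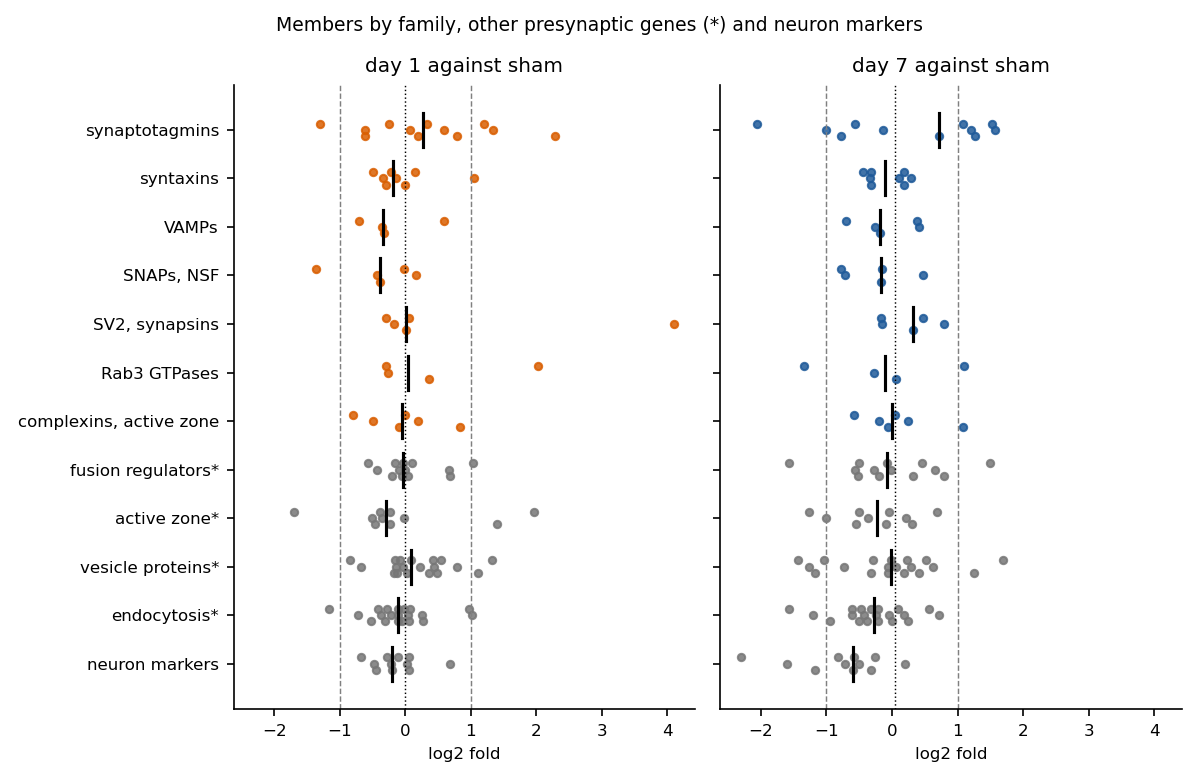
Log2 folds (horizontal axis) of measured genes at day 1 (left) and day 7 (right) against sham, for the 7 member families (coloured), 4 groups of other presynaptic genes (grey, starred) and neuron markers. Black bars are medians, the dotted line is the median of all genes and dashed lines mark 2-fold; at day 7 the neuron markers have the lowest median (-0.59) and the synaptotagmins the highest (0.72).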

How the data were processed

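RNA of 3 samples was measured on 1-colour Agilent rat arrays. Per the file headers, the authors' deposited values are spot intensities, processed by Agilent Feature Extraction 10.7.3.1 with background subtraction and not scaled between arrays. Other deposited columns are 0 or 1 flags for background, saturation and outliers. All arrays shared 1 slide (sham on position 4, day 1 on 3, day 7 on 2), so position and group cannot be told apart.

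From these, log2 intensity minus the array's 75th percentile was computed in Python 3.11.15, without outlier spots, and spots of a probe were averaged. Probes were named through RefSeq accessions (GRCr8 table, 10768 of 41012 probes). The files held no gene name column and no mean signal, so naming by gene name was not run and normexp used median signals. Alternatives used limma 3.58.1. With 1 array per group no p-value is given. The counting was tested on simulated data.

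Members and lists were chosen with earlier results of these data known. Values on all arrays are given for members past 2-fold, the highest probe of each family, 17 core genes and members with discordant probes, and the 4 highest and lowest other presynaptic genes are named, except 1 that is not reported here.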

Additional observations from a re-analysis of the deposited data

Results flagged for a closer look

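For 4 members the folds against sham had opposite signs on the 2 days and the days differed by at least 2-fold. Syt3 was lower at day 1 and higher at day 7, with 2.13 log2 between the days. Syt17 was higher at day 1 and lower at day 7, with -1.77 between them. Vamp1 did likewise by its brighter probe, with -1.29, while its other probe gave 0.0017. Syt7 was near sham at day 1 and lower at day 7, with -1.09. With 1 array per day these differences were not tested.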

How the results depend on the processing

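The 11 planned and added alternatives changed scaling, background correction, filters, probe choice and flagged spots; choosing the brightest unsaturated probe was added after seeing the data. At day 1 against sham, 2 members were at least 2-fold lower, but 1 under normexp, 1 among brighter probes and 5 without a filter on dim probes. At day 7 against sham, 7 were higher, but 4 under quantile normalization, 4 under cyclic loess, 4 under normexp and 2 among brighter probes, and 3 were lower, but 6 without the filter. At day 7 against day 1, 1 was higher and 7 lower, but 3 and 4 in the authors' unscaled table, and 3 were higher without the filter. The median at day 7 against sham, -0.10, was 0.014 under normexp. By a further probe, Snap23 at day 1 had a log2 fold of 0.73 instead of -1.37 and Rab3b at day 1 of 0.87 instead of 2.03. Rab3d at day 7 had one of -0.82 instead of 1.10, and Vamp1 between the days of 0.0017 instead of -1.29. Of the members past 2-fold, 5 of 8 at day 1, 5 of 10 at day 7 and 4 of 8 between the days kept their call throughout. This count takes in each alternative that measured them and each further probe used alone. All that kept it, except Rab3b between the days, had 1 probe, so probe choice could not change their calls. Called members with a further probe otherwise lost the call: Rab3b and Snap23 at day 1, Rab3d at day 7, Vamp1 between the days. The causes were not tested. No paired analysis was possible because each group has 1 array. A member not well above background on an array has no fold there.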
